A study of Gallus gallus with 6 samples.

Results

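The comparison was between male and female Ma-Huang chickens in cloacal skin, read on the autosomes apart from the Z and W chromosomes. The labels give no sex, so libraries were selected on the level of HINTW, a gene of the W chromosome: a library above 10 FPKM (a gene's share of the mapped fragments, corrected for its length) was taken as female and one below 1 FPKM as male. This placed all 6 libraries of the series, 2 as male (s_deep6402 and s_deep6403) and 4 as female (s_deep7858, s_light6575, s_light6971 and s_light8275), each from a different bird. Of 18315 genes listed in the files, 14476 were assigned to an autosome, and 13084 of these had a mean of at least 0.1 FPKM and were tested.

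The study chose birds from the ends of a range of cloacal skin yellowness, 3 with high values (s_deep) and 3 with low values (s_light), all of 1 breed and age, kept under the same feeding, in a flock that was mostly female. A small round piece of skin was cut at the cloaca, freed of subcutaneous fat and sequenced as 1 mRNA library per bird, so that each library is a mixture of every cell type in the piece. Neither group carried a treatment or an introduced allele. Sex and yellowness were partly confounded: both males were s_deep, no s_light library was male, and s_deep7858 was the only female with high yellowness. A difference between the males and the 3 s_light females can therefore not be told apart from one of yellowness, and s_deep7858 is the single library in which the labels and the inferred sex part. The groups were taken from the labels, but the study's supplement lists the wing number of s_deep6403 among nearly white birds, and its table of reads gives another wing number in place of s_deep7858. Every statement on yellowness, and each comparison that sets s_deep7858 apart as an s_deep female, rests on the labels.

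In birds the male carries a pair of Z chromosomes and the female carries 1 Z and 1 W. The W holds few genes, most of which have a related copy on the Z, and dosage compensation of the Z is incomplete in chickens, so that many Z genes are transcribed at a higher level in males in most tissues. Sex differences of autosomal genes are better known from gonad, liver, muscle and plumage, where sex steroids act on them. Skin at the cloaca holds epidermis and dermis with fat, vessels, nerves and smooth muscle.

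HINTW was read at 0.06 and 0.17 FPKM in the males, at 122 FPKM in s_deep7858, and in the s_light libraries at 162 (s_light6575), 206 (s_light6971) and 152 FPKM (s_light8275), the order kept for the values given from here on. No library lay between the limits of the rule. These values chose the groups. HINTW was in the fit and in its adjustment, but its p is not read as a result. Of the 34 W genes tested, 25 (73.5%), HINTW included, were lower in both males than in every female, which describes the same division of the libraries. The Z chromosome was not used by the rule. HINT1, the related gene on the Z, was read at 31.4 and 31.7 FPKM in the males, 18.5 FPKM in s_deep7858 and 21.8, 21.2 and 20.7 FPKM in the s_light libraries. Its groups did not overlap, and the males exceeded the females by 0.62 on the log2 scale (standard error 0.11, adjusted p = 0.0936, limma).

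**Figure D1:**
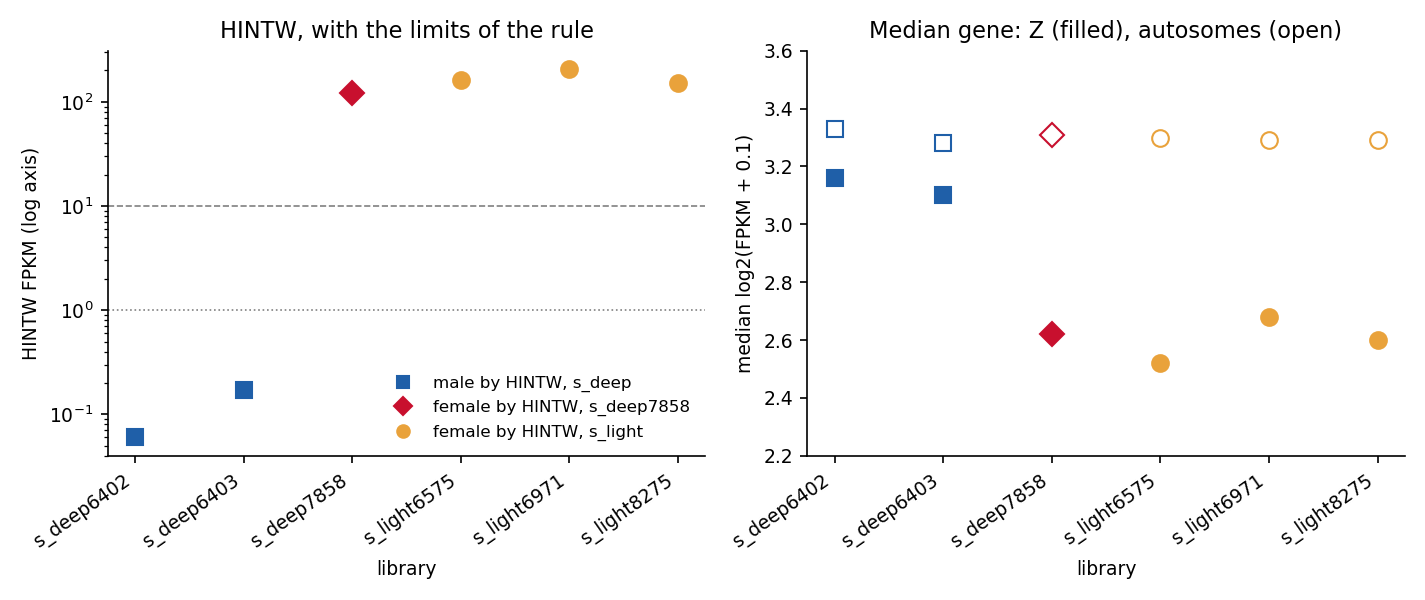
Left, HINTW in FPKM on a log axis for each of the 6 libraries, with a dashed line at 10 FPKM and a dotted line at 1 FPKM. Right, the median log2(FPKM + 0.1) of the tested Z genes (filled) and autosomal genes (open) per library. The Z medians are 3.16 and 3.1 in the males and between 2.52 and 2.68 in the females, while the autosomal medians of all libraries lie between 3.28 and 3.33.

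The Z genes differed broadly between the sexes, in s_deep7858 as in the s_light females. Their median difference, males minus females on the log2(FPKM + 0.1) scale, was 0.49 over 634 tested genes, and it was 0.5 against the s_light females and 0.49 against s_deep7858. Both males were above all females in 352 Z genes (55.5%) and below all of them in 23 (3.63%). At an FDR of 0.05 with an absolute log2 difference of at least 1, 9 Z genes (1.42%) were called, all higher in males, and 31 (4.89%) passed the FDR at any size. MRPL17, a gene of the mitochondrial ribosome, was read at 76.9 and 74.7 FPKM in the males, 34.5 FPKM in s_deep7858 and 33.9, 36.9 and 30.5 FPKM in the s_light libraries, a difference of 1.16 (standard error 0.11, adjusted p = 0.00508, limma). The count of called Z genes depended on single libraries: it was 1 without s_deep6402, 1 without s_deep6403, 5 without s_deep7858, 2 without s_light6575, 8 without s_light6971 and 4 without s_light8275.

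On the autosomes few genes separated the sexes past correction. The median difference was 0.01, and 5% of genes lay below -0.75 and 5% above 0.55. At the same thresholds 6 of 13084 autosomal genes (0.0459%) were called, all of them lower in males: PI16, COMP, TNMD, TNX, SSTR2 and LOC107049986. EDN1 passed the FDR with a smaller difference and was higher in males, which makes 7 genes (0.0535%) at any size. At an unadjusted p under 0.05, 370 autosomal genes (2.83%) were higher and 448 (3.42%) lower in males, together 6.25% of those tested. Both males were above all females in 1010 genes (7.72%) and below all of them in 1000 (7.64%).

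**Figure D2:**
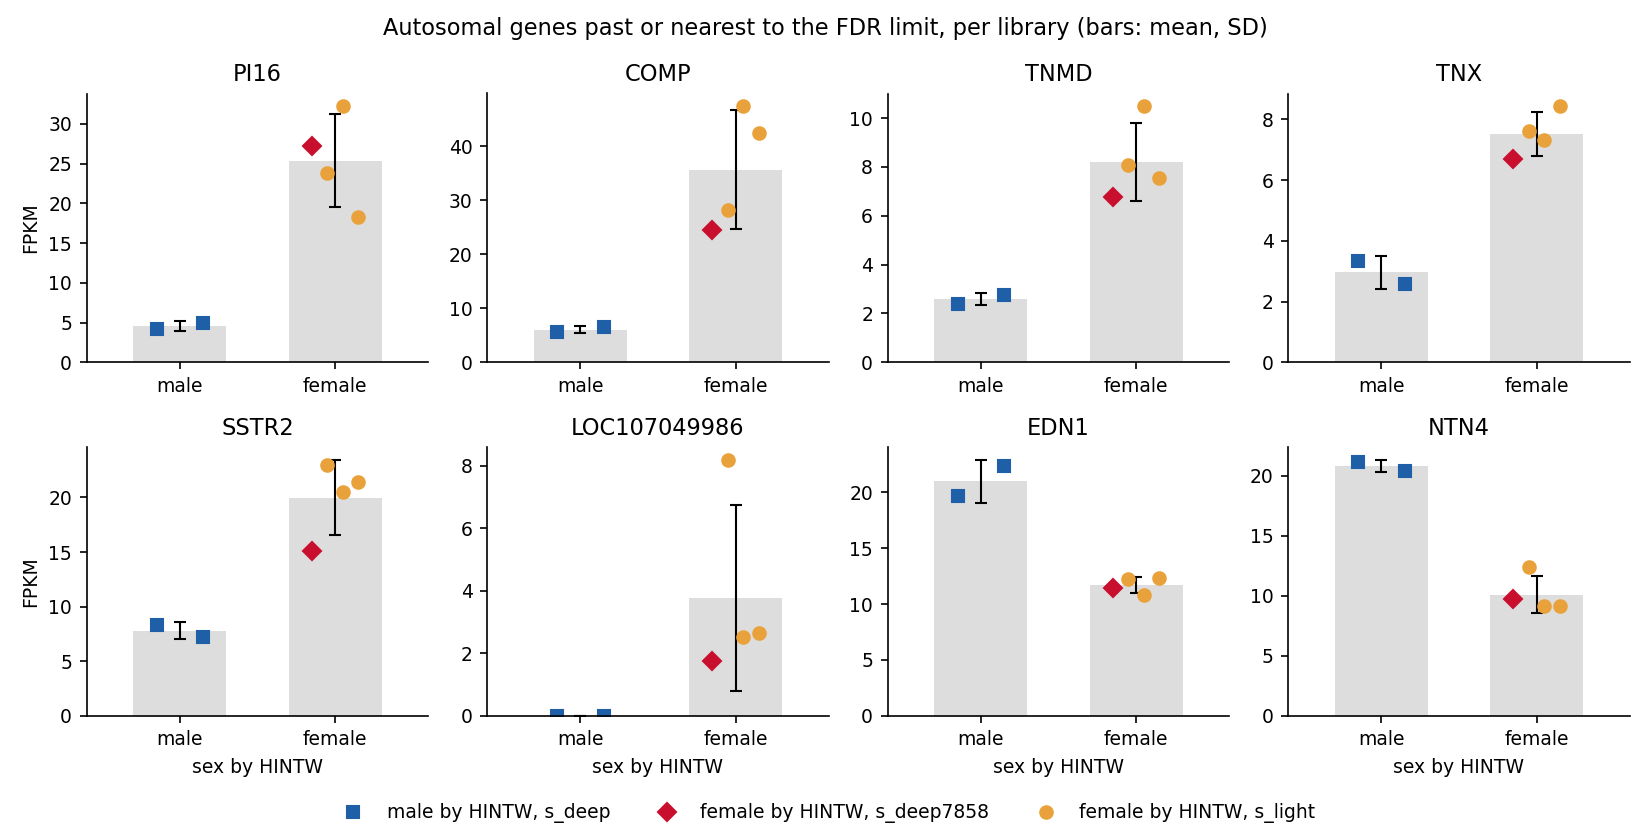
FPKM of NTN4 and of the 7 autosomal genes past the FDR in each library, by inferred sex; points are libraries, bars are means and error bars are SD (n = 2 males, n = 4 females). In each gene the 2 males lie apart from the 4 females, s_deep7858 included.

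PI16 had the smallest p of all autosomal genes. PI16 (Gene ID 419818) encodes a peptidase inhibitor that marks a fibroblast population in mouse and human, and was read at 4.15 and 4.97 FPKM in the males, 27.2 FPKM in s_deep7858 and 23.8, 32.2 and 18.2 FPKM in the s_light libraries. All females were above both males, and s_deep7858 lay within the range of the s_light birds. Its means were 4.56 ± 0.58 FPKM (SD, n = 2) and 25.3 ± 5.88 FPKM (SD, n = 4), and the difference was -2.42 (standard error 0.23, adjusted p = 0.00502, limma).

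COMP (Gene ID 420120) encodes cartilage oligomeric matrix protein, a glycoprotein that binds collagen in cartilage and tendon. It was read at 5.58 and 6.52 FPKM in the males, 24.6 FPKM in s_deep7858 and 28.2, 47.4 and 42.5 FPKM in the s_light libraries. The groups did not overlap, and s_deep7858 was the lowest of the females. The difference was -2.49 (standard error 0.28, adjusted p = 0.0133, limma).

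TNMD (Gene ID 404530) encodes tenomodulin, a membrane protein of tendon and ligament cells. Its level was 2.4 and 2.76 FPKM in the males, 6.77 FPKM in s_deep7858 and 8.07, 10.5 and 7.54 FPKM in the s_light libraries, a difference of -1.62 (standard error 0.21, adjusted p = 0.029, limma). TNX (Gene ID 396106), a tenascin of the extracellular matrix, was read at 3.34 and 2.58 FPKM in the males, 6.71 FPKM in s_deep7858 and 7.62, 7.31 and 8.43 FPKM in the s_light libraries. Its difference was -1.32 (standard error 0.18, adjusted p = 0.0377, limma). In both genes all females exceeded both males, and s_deep7858 was the female nearest to them.

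SSTR2 (Gene ID 395305) encodes a somatostatin receptor. It was read at 8.34 and 7.26 FPKM in the males, 15.1 FPKM in s_deep7858 and 22.99, 20.46 and 21.46 FPKM in the s_light libraries. The groups were apart, with s_deep7858 between the males and the s_light birds. The difference was -1.33 (standard error 0.19, adjusted p = 0.0402, limma). LOC107049986, a protein-coding gene without a name in RefSeq, was listed at 0 in both males and at 1.74 FPKM in s_deep7858 and 8.19, 2.53 and 2.64 FPKM in the s_light libraries (adjusted p = 0.0165, limma). Because it is listed at 0 in the males no fold is given, and the file does not tell absence from a level under its resolution.

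EDN1 (Gene ID 420854), which encodes endothelin-1, a vasoconstrictor peptide of endothelial and other cells, was read at 19.6 and 22.3 FPKM in the males, 11.4 FPKM in s_deep7858 and 12.2, 10.8 and 12.3 FPKM in the s_light libraries. The 4 females lay close together and both males above them. The males exceeded the females by 0.84 (standard error 0.13, adjusted p = 0.0479, limma). In 14 of 16 alternatives the adjusted p was above 0.05.

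These calls were not firm against the choices made around them. Adjustment ran over all 15900 tested genes, which include the Z genes and the W genes, HINTW of the rule among them. When it ran over the autosomal genes alone 0 were called. The adjusted p of PI16 was then 0.173 and that of COMP 0.24 (limma). The 818 genes at an unadjusted p under 0.05 were unchanged by the adjustment. The number called was 0 without s_deep6402, 1 without s_deep6403, 16 without s_deep7858, 3 without s_light6575, 4 without s_light6971 and 3 without s_light8275, and a lone male was then assumed to vary like the females. The adjusted p of PI16 stayed within 0.05 without s_deep7858 and without each s_light library in turn, and exceeded it without s_deep6402 (0.105) or s_deep6403 (0.0755, limma).

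With yellowness as a covariate, the sex difference rests on the 2 males against s_deep7858 alone. The differences of the 6 genes kept their direction in this fit, and none was called. The values were -2.56 for PI16 (adjusted p = 0.0909), -2.01 for COMP (adjusted p = 0.161), -1.36 for TNMD (adjusted p = 0.26), -1.17 for TNX (adjusted p = 0.286) and -0.94 for SSTR2 (adjusted p = 0.223, all limma). LOC107049986 had an adjusted p of 0.217, and EDN1 a difference of 0.87 with an adjusted p of 0.26. The single gene called in this fit (0.00764%), with 6.73% at an unadjusted p under 0.05, was RPL35A, which encodes a protein of the large ribosomal subunit. It was read at 253 and 294 FPKM in the males, 4.57 FPKM in s_deep7858 and 249, 153 and 136 FPKM in the s_light libraries. Its difference of 5.87 (adjusted p = 0.00424, limma) thus sets s_deep7858 apart from all other libraries of either sex, and reads of ribosomal protein genes can be divided with near-identical copies elsewhere in the genome.

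Among autosomal genes with a symbol, a difference of at least 1 and groups without overlap, those next in order of p were not called. Lower in the males were GPR1, a receptor for the adipokine chemerin, at 3.96 and 3.49 FPKM against 7.27 to 10.2 FPKM in the females (adjusted p = 0.0698), and the cell surface protein gene IGSF3, at 2.92 and 5.54 FPKM against 10.2 to 15.8 FPKM (adjusted p = 0.0765, limma). COL15A1, a collagen of the basement membrane zone, was read at 1.56 and 1.61 FPKM against 3.22 to 5.22 FPKM (adjusted p = 0.0821, limma). ADAMTS2, the protease that trims the amino end of procollagen, was read at 2.76 and 2.9 FPKM against 5.1 to 8.03 FPKM (adjusted p = 0.0936, limma).

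BMP5, a bone morphogenetic protein, was read at 0.21 and 0.28 FPKM in the males and at 0.88 to 1.33 FPKM in the females (adjusted p = 0.0936, limma). CPAMD8, of the alpha-2-macroglobulin family, had 1.29 and 1.4 FPKM in the males and 2.87 to 3.59 FPKM in the females (adjusted p = 0.0936, limma). PLIN4, which coats lipid droplets, was read at 50.1 and 39.4 FPKM in the males, 84.2 FPKM in s_deep7858 and 132, 180 and 128 FPKM in the s_light libraries (adjusted p = 0.0978, limma). In PLIN4 as in SSTR2, s_deep7858 lay between the males and the s_light birds.

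Higher in the males, and not called, was first NTN4, which encodes netrin-4, a laminin-related protein of basement membranes. It was read at 21.2 and 20.4 FPKM in the males, 9.71 FPKM in s_deep7858 and 12.4, 9.14 and 9.19 FPKM in the s_light libraries. The groups did not overlap, and the males exceeded the females by 1.05 (standard error 0.16, adjusted p = 0.0528, limma). S100A1, a calcium-binding protein, was read at 74.2 and 117 FPKM in the males and at 37.7 to 50.3 FPKM in the females, a difference of 1.07 (standard error 0.2, adjusted p = 0.0986, limma). SYT1, the calcium sensor of synaptic vesicles, had 3.78 and 8.33 FPKM in the males and 0.87 to 1.74 FPKM in the females, a difference of 2.22 (adjusted p = 0.0958, limma). In each of these genes s_deep7858 lay within the range of the s_light females.

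The histone gene HIST1H2B8 was read at 6.38 and 8.2 FPKM in the males against 3.14 to 3.87 FPKM in the females (adjusted p = 0.0958, limma), and reads of the many near-identical histone genes may be divided among them. The other genes of this order were PTCHD3, GVINP1, LRP2BP, LCT, MEF2B, APOC3, NETO2 and EDN2, with differences between 1.02 and 2.51 and adjusted p between 0.11 and 0.255 (limma). EDN2, a second endothelin, was read at 34.7 and 29.4 FPKM in the males, 17.2 FPKM in s_deep7858 and 21.8, 10.8 and 13.2 FPKM in the s_light libraries, a difference of 1.07 (standard error 0.27, adjusted p = 0.255, limma).

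Lists of genes for steroid action, gonadal sex, cell types and metabolism held 348 distinct autosomal members that were tested. None of them was called, and none of the 6 called genes was on a list (lowest adjusted p = 0.0817, for VWF, limma). Without s_deep7858 5 members were called, FMOD, MYL4, HSPB1, ATF3 and NRAP. Over all tested autosomal genes that fit called 15 lower (0.115%) and 1 higher (0.00764%) in males. The lists were chosen with earlier results of these data known, so the 5 are not read as a result about the lists. The lists are described by how many members had groups without overlap, beside 7.72% higher and 7.64% lower over all tested autosomal genes, and by their median, beside 0.01.

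No gene through which sex steroids are made or read was called. Of 18 receptors and cofactors tested, 2 were higher and 2 lower without overlap (11.1% each), and the median was 0.0. ESR1, the oestrogen receptor alpha gene, was read at 2.24 and 2.55 FPKM in the males, 3.58 FPKM in s_deep7858 and 1.62, 3.19 and 1.83 FPKM in the s_light libraries. The sexes overlapped (adjusted p = 0.995, limma).

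Of 17 genes of steroid synthesis and inactivation, 1 was higher and 2 were lower without overlap, and the median was -0.06. SRD5A1, which reduces testosterone to the more potent dihydrotestosterone, was read at 11.8 and 8.46 FPKM in the males, 8.04 FPKM in s_deep7858 and 6.5, 6.59 and 7.75 FPKM in the s_light libraries (adjusted p = 0.55, limma). SULT1E1, which inactivates oestrogens by sulphation, was the most abundant member, at 161 and 156 FPKM in the males and 167 to 265 FPKM in the females (adjusted p = 0.7, limma). The groups of both genes were apart, by a narrow margin.

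Of 15 autosomal genes of gonadal sex determination tested, 0 were higher and 2 lower without overlap (13.3%), and the median was -0.64. Against the s_light females it was -0.74 and against s_deep7858 -0.4. AMH and SOX9, which act in the testis, and FOXL2, which acts in the ovary, overlapped between the sexes. AMH was read at 0.57 and 1.42 FPKM in the males and 0.45 to 1.03 FPKM in the females, and SOX9 at 2.15 and 1.26 FPKM against 1.94 to 4.32 FPKM. FOXL2 was read at 0.74 and 1.24 FPKM in the males and 0.21 to 1.03 FPKM in the females. Of 12 matched genes of egg proteins, which oestrogen induces in liver and oviduct of laying hens, 7 were under the minimum for testing. The 4 autosomal genes tested had a median of -0.36, with 1 of them, LYZ, higher in males without overlap. Their median was -0.49 against the s_light females and 0.01 against s_deep7858.

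Among the 21 lists, cholesterol synthesis had the largest share of members lower in males without overlap. Of its 17 tested autosomal genes, 8 (47.1%) were lower without overlap and 0 higher, and the median was -0.41, being -0.45 against the s_light females and -0.38 against s_deep7858. These contrasts share the 2 males. MSMO1, which removes methyl groups from sterols, was read at 27.3 and 22.7 FPKM in the males, 39.6 FPKM in s_deep7858 and 38.8, 32.2 and 38.5 FPKM in the s_light libraries (difference -0.58, standard error 0.14, adjusted p = 0.209, limma).

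LSS, the cyclase that forms lanosterol, was read at 6.79 and 4.93 FPKM in the males, 8.58 FPKM in s_deep7858 and 10.5, 10.1 and 9.8 FPKM in the s_light libraries (difference -0.74, adjusted p = 0.232, limma). FDPS, which makes farnesyl diphosphate, was read at 7.35 and 7.22 FPKM in the males and at 9.94 to 15.3 FPKM in the females (difference -0.70, adjusted p = 0.353, limma). SQLE, the squalene epoxidase, was read at 1.88 and 1.72 FPKM in the males and at 2.54 to 3.92 FPKM in the females (difference -0.82, adjusted p = 0.379, limma). SREBF2, the transcription factor that drives the pathway, was read at 25.5 and 19.6 FPKM against 26.5 to 31.8 FPKM, a narrower gap. No member passed correction. MVK, PMVK, HSD17B7 and INSIG1 had positive differences (0.31, 0.25, 0.14 and 0.11). CYP51A1, the most abundant tested autosomal member, overlapped between the sexes. It was read at 50.7 and 47.0 FPKM in the males, 48.5 FPKM in s_deep7858 and 61.8, 95.5 and 62.7 FPKM in the s_light libraries.

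**Figure D3:**
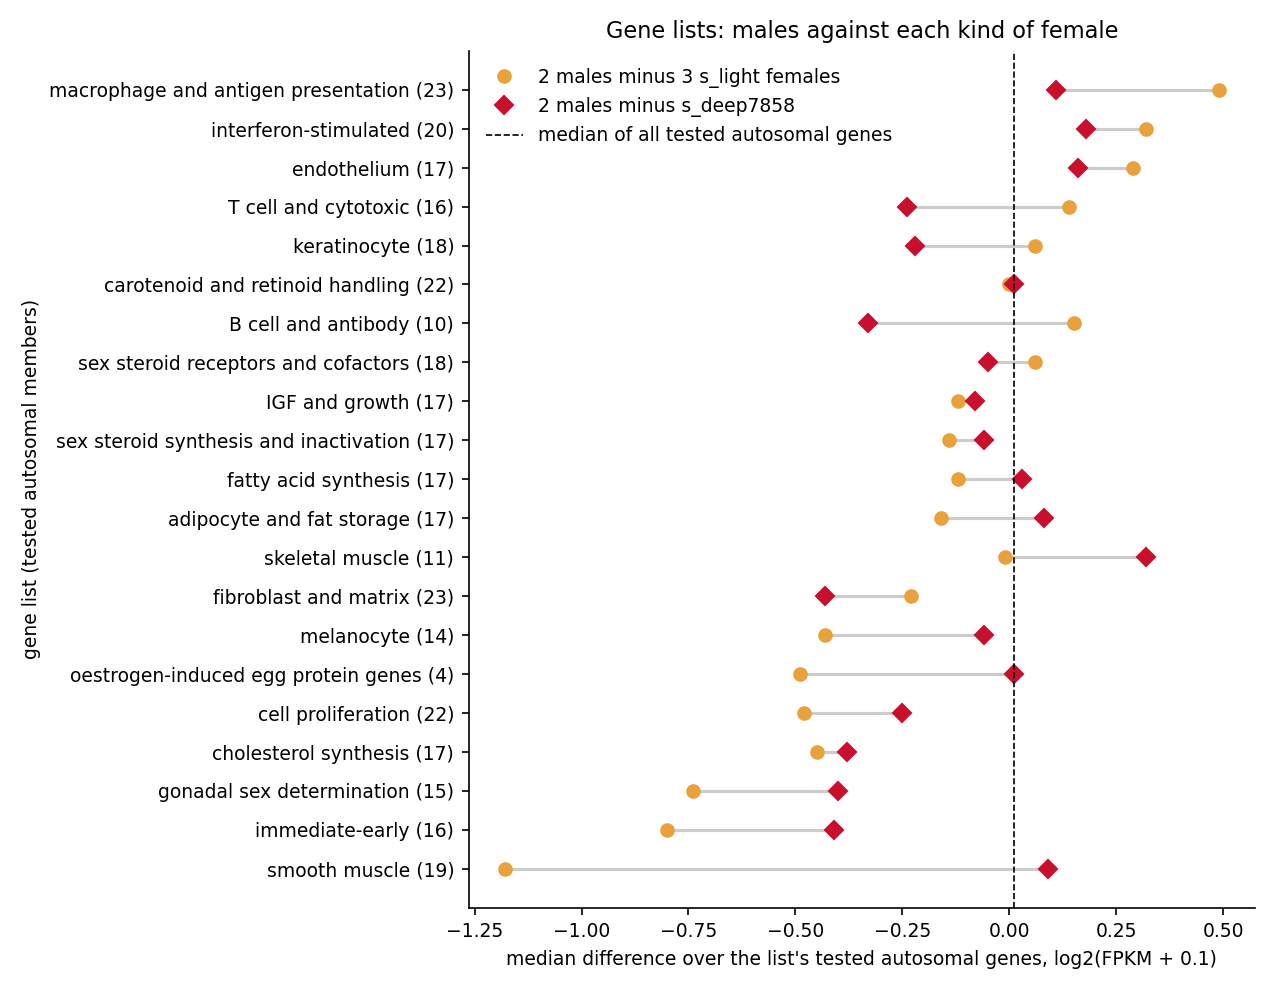
Median difference on the log2(FPKM + 0.1) scale over the tested autosomal members of each list, males minus the 3 s_light females (circles) and males minus s_deep7858 (diamonds); the dashed line is the median of all tested autosomal genes, 0.01. Cholesterol synthesis has medians of -0.45 and -0.38, while smooth muscle has -1.18 and 0.09.

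The fibroblast and matrix list also leaned to lower values in males. Of 23 tested genes, 9 (39.1%) were lower without overlap and 0 higher, with a median of -0.33 (-0.23 against s_light and -0.43 against s_deep7858). TNC, the tenascin of remodelling tissue, was read at 26.4 and 23.5 FPKM in the males, 77.2 FPKM in s_deep7858 and 43.5, 37.3 and 61.0 FPKM in the s_light libraries (difference -1.08, adjusted p = 0.276, limma). SPARC, a collagen-binding glycoprotein, was read at 1131 and 870 FPKM in the males and at 1278 to 1512 FPKM in the females (difference -0.51, adjusted p = 0.48, limma). COL14A1 and COL12A1, collagens at the surface of fibrils, had differences of -0.71 (adjusted p = 0.201) and -0.82 (adjusted p = 0.234, limma), with s_deep7858 the highest library in each. FMOD was also among the 9, with s_deep7858 (0.43 FPKM) close to the males (0.24 and 0.38 FPKM). Other members overlapped between the sexes. COL1A1 was read at 618 and 533 FPKM in the males and 454 to 1259 FPKM in the females. DCN was read at 518 and 490 FPKM against 424 to 722 FPKM. PDGFRA and PDGFRB overlapped too, and LUM had a positive difference (0.26).

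The summed FPKM of this list was 6858 to 7174 in the males, 10040 in s_deep7858 and 7378 to 10640 in the s_light libraries, so that the lowest female lay little above the higher male. Among the females PI16 had the same order as the sum, falling from s_light6971 through s_deep7858 and s_light6575 to s_light8275. COMP, TNMD and TNX did not: s_deep7858 was lowest in each of them and above the lowest s_light library in the sum. The part of fibroblast content in the differences of PI16, COMP, TNMD and TNX was not tested. Fewer fibroblasts in the piece cannot be told apart from less RNA of these genes per cell. The keratinocyte list did not follow the sexes. Its sum was 3056 to 3643 FPKM in the males and 2370 to 3741 FPKM in the females, with a median difference of 0.04. KRT5 and KRT14, keratins of the basal epidermis, were read at 769 to 1369 and at 616 to 1057 FPKM over the 6 libraries, and TP63, the regulator of epidermal identity, at 35.8 to 47.7 FPKM, so that epidermal markers were present in each library labelled skin.

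Of 22 genes of cell proliferation, 21 had a negative difference, 7 (31.8%) were lower in males without overlap and 0 higher. The median was -0.40, beside 0.01 over all tested autosomal genes, being -0.48 against the s_light females and -0.25 against s_deep7858. The summed FPKM of the list overlapped between the sexes, at 124.0 and 144.4 in the males and 142.7 to 202.9 in the females. MKI67, at 2.34 and 3.54 FPKM against 3.14 to 4.92 FPKM, overlapped too, as did CDK1 and AURKB. TYMS, the thymidylate synthase, was read at 2.1 and 2.06 FPKM in the males, 4.15 FPKM in s_deep7858 and 5.27, 4.62 and 2.45 FPKM in the s_light libraries (difference -0.90, adjusted p = 0.478, limma). PCNA, the sliding clamp of DNA replication, was the most abundant of the 7, at 43.6 and 41.9 FPKM in the males and 46.4 to 55.4 FPKM in the females (difference -0.23, adjusted p = 0.647, limma).

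In the other direction, 8 of 20 interferon-stimulated genes (40.0%) were higher in males without overlap and 0 lower. Their median was 0.29, being 0.32 against s_light and 0.18 against s_deep7858. IFIH1, a cytoplasmic sensor of viral RNA, was read at 8.55 and 10.4 FPKM in the males, 6.94 FPKM in s_deep7858 and 5.52, 4.69 and 6.08 FPKM in the s_light libraries (difference 0.71, standard error 0.2, adjusted p = 0.33, limma). OASL, also among the 8, was apart by a narrow margin, at 11.84 and 14.24 FPKM against 4.16 to 11.77 FPKM. The other members overlapped between the sexes. Among them were MX1, at 5.79 and 7.06 FPKM against 2.14 to 5.95 FPKM, and IFIT5, IFI6 and IFI27L2.

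Of 23 genes of macrophages and antigen presentation, 6 (26.1%) were higher and 1 (4.35%) lower in males without overlap, with a median of 0.42. This list leaned on the s_light birds: the median was 0.49 against them and 0.11 against s_deep7858. B2M, the light chain of MHC class I, was read at 1117 and 1269 FPKM in the males, 955 FPKM in s_deep7858 and 777, 664 and 778 FPKM in the s_light libraries (difference 0.60, adjusted p = 0.402, limma). The class I heavy chain gene BF1 was read at 855 and 994 FPKM in the males, 703 FPKM in s_deep7858 and 607, 596 and 634 FPKM in the s_light libraries (difference 0.54, adjusted p = 0.314, limma), and its reads may be divided with the similar gene BF2. TAP1 and TAP2, which carry peptides to class I, had differences of 0.46 and 0.47, and in both s_deep7858 lay between the males and the s_light birds. MARCO, a macrophage scavenger receptor, was the member lower in males, at 0.29 and 0.34 FPKM against 0.58 to 0.92 FPKM (adjusted p = 0.379, limma). The 6 higher members were B2M, BF1, BF2, TAP1 and TAP2, all of class I, and TLR2B, at 0.62 FPKM or less. C1QA, C1QB, C1QC, CD74, BLB1, BLB2, CTSS, SPI1, LY86 and MRC1 overlapped between the sexes.

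Of 17 endothelial genes, 2 (11.8%) were higher without overlap and 0 lower, and the summed FPKM of the list was 830 to 914 in the males and 632 to 727 in the females. VWF, which encodes von Willebrand factor of vessel walls, was read at 229 and 228 FPKM in the males, 153 FPKM in s_deep7858 and 141, 151 and 159 FPKM in the s_light libraries (difference 0.60, standard error 0.1, adjusted p = 0.0817, limma). KDR, a receptor for vascular endothelial growth factor, was read at 12.5 and 11.2 FPKM in the males and at 6.91 to 8.9 FPKM in the females (difference 0.56, adjusted p = 0.308, limma). PECAM1 and CDH5, the defining markers of the list, overlapped between the sexes. The part of vessel content in the difference of EDN1 was not tested.

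The summed level of the smooth muscle list separated the s_light birds from the s_deep birds rather than the sexes, though not every member did. The summed FPKM of its 19 tested autosomal genes was 2930 and 5083 in the males, 3877 in s_deep7858 and 6505 to 12490 in the s_light libraries. The median difference was -1.18 against s_light and 0.09 against s_deep7858, and 2 members were lower in males without overlap. Desmin (DES) was read at 50.4 and 92.6 FPKM in the males, 27.1 FPKM in s_deep7858 and 627, 401 and 1013 FPKM in the s_light libraries. ACTA2 overlapped between s_deep and s_light, at 649 and 1214 FPKM in the males, 1105 FPKM in s_deep7858 and 720, 729 and 851 FPKM in s_light. LMOD1, KCNMB1 and CALD1 overlapped between them as well. FHL2, MYL4 and HSPB1, described below, are on this list. The sums of some other lists also separated the s_light birds from the s_deep birds, while most overlapped. For skeletal muscle the sum was 79.14 and 241.6 FPKM in the males, 111.5 in s_deep7858 and 596 to 2139 in s_light. ACTA1 made most of it, at 72.6 and 232 FPKM in the males, 103 FPKM in s_deep7858 and 827, 590 and 2135 FPKM in s_light. NRAP was higher in the s_deep birds and MYBPC1 lower. MYL1, MYL3, TNNT3, TNNI2, TNNC2, PVALB and ACTN2 overlapped between s_deep and s_light. For fat storage the sum was, in the same order, 1763 to 2137, 2081 and 2533 to 2719 FPKM. FABP4, PLIN1, CIDEC and CD36 were higher in each s_light bird than in the s_deep birds. ADIPOQ overlapped, at 814 and 1039 FPKM in the males, 1171 FPKM in s_deep7858 and 924, 581 and 886 FPKM in s_light. PPARG, CEBPA and CIDEA overlapped too. For fatty acid synthesis the sum was 448.7 to 553.8, 490.1 and 592.6 to 668.1 FPKM. THRSP, SCD and ACSS2 were higher in each s_light bird, while FASN, ACACA, ACLY and ELOVL1 overlapped between s_deep and s_light. The sum of the list of macrophages and antigen presentation separated the s_light birds from the s_deep birds in the other direction. The part of muscle content in differences of the males from the s_light females was not tested.

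The lists for skeletal muscle, fat storage, fatty acid synthesis, T cells, B cells, melanocytes, IGF and growth, and carotenoid and retinoid handling each had at most 2 members without overlap in either direction, and their medians lay between -0.36 and 0.11.

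The library s_deep7858 shows how far differences of the males from the s_light females hold in a female of high yellowness. A fit of the 2 males against the 3 s_light females, which did not use s_deep7858, gave 263 autosomal genes (2.01%) lower and 74 (0.566%) higher in males at an unadjusted p under 0.05 and a difference of at least 1. In 100 of the 263 (38.0%) s_deep7858 was nearer to the s_light mean than to the male mean, and in 163 it was nearer to the males. Over all autosomal genes with a lower male mean, 3659 of 6258 (58.5%) were nearer to s_light. In the 74 genes that were higher in males, 41 (55.4%) were nearer to s_light, beside 3709 of 6823 (54.4%) over all genes in that direction. The genes over which these shares are compared differ in the size of their differences, and the shares were not tested.

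At an FDR of 0.05 that fit called 16 autosomal genes, 15 lower in males (0.115%) and NRAP higher (0.00764%). PI16, COMP, SSTR2 and LOC107049986 were called in it as in the comparison of all 6 libraries. The other 11 lower genes were YLEC8, YLEC9, FMOD, MYL4, HSPB1, HSPB7, CCN3, FHOD3, ATF3, COL15A1 and PLIN4. FMOD, which encodes the collagen-binding proteoglycan fibromodulin, was read at 0.24 and 0.38 FPKM in the males, 0.43 FPKM in s_deep7858 and 11.7, 7.89 and 17.0 FPKM in the s_light libraries. MYL4, a myosin light chain, was read at 0.33 and 0.95 FPKM in the males, 0.39 FPKM in s_deep7858 and 16.3, 19.1 and 41.0 FPKM in the s_light libraries. In both genes s_deep7858 lay with the males, and over all 6 libraries their adjusted p was 0.472 and 0.597 (limma).

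FHL2, a LIM protein of muscle, was read at 1.06 and 7.93 FPKM in the males, 0.25 FPKM in s_deep7858 and 84.5, 132 and 199 FPKM in the s_light libraries. HSPB1, a small heat shock protein, was read at 166 and 194 FPKM in the males, 156 FPKM in s_deep7858 and 392, 402 and 424 FPKM in the s_light libraries. NRAP, an actin-binding protein of striated muscle, was read at 2.86 and 2.3 FPKM in the males, 1.81 FPKM in s_deep7858 and 0.26, 0.16 and 0.16 FPKM in the s_light libraries. The adjusted p of these genes between the sexes was 0.795, 0.64 and 0.423 (limma), and in each s_deep7858 was with the males. ATF3, a transcription factor induced by stress, was read at 2.28 and 4.97 FPKM in the males, 6.05 FPKM in s_deep7858 and 52.5, 73.4 and 38.4 FPKM in the s_light libraries, so that the sexes did not overlap although s_deep7858 lay near the males (adjusted p = 0.364, limma).

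**Figure D4:**
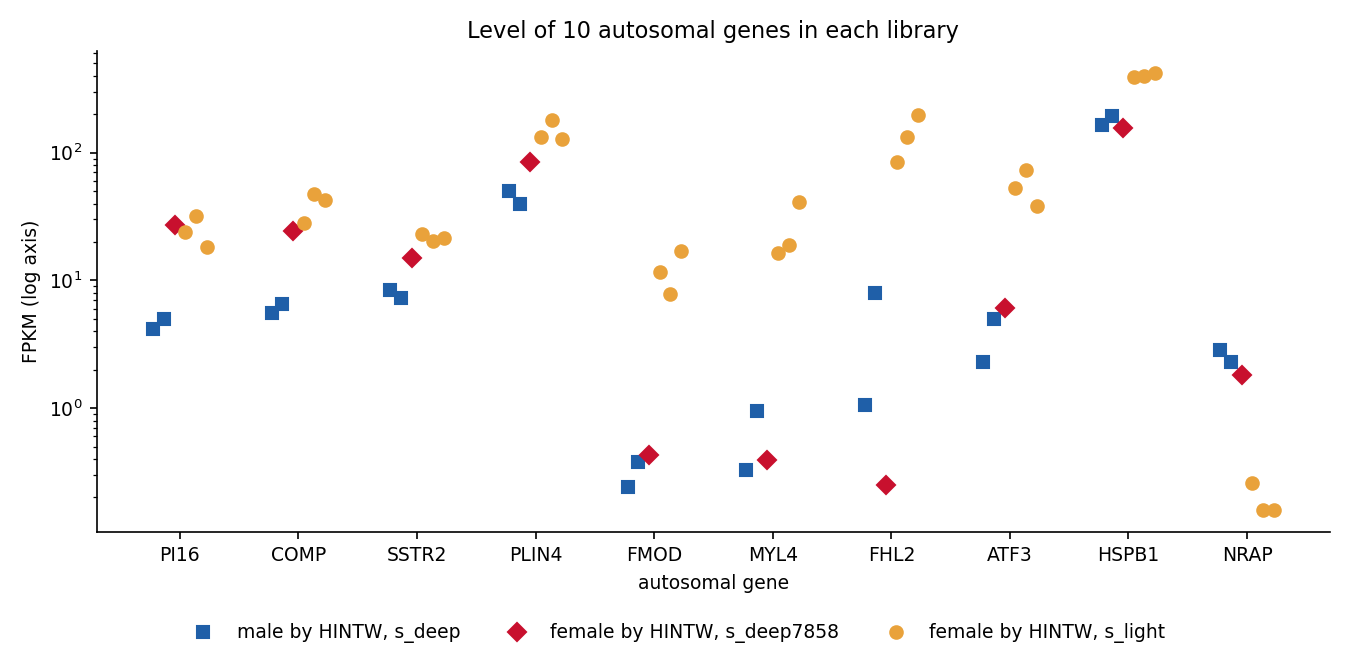
FPKM of 10 autosomal genes in each library, on a log axis; squares are the 2 males, the diamond is s_deep7858 and circles are the 3 s_light females. In PI16 and COMP s_deep7858 stands near the s_light females (27.2 and 24.6 FPKM), and in FMOD, MYL4, FHL2, HSPB1 and NRAP near the males.

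The pigment genes that the study follows showed no called difference between the sexes. TYR, the tyrosinase of melanin synthesis, was read at 0.11 and 0.2 FPKM in the males, 0.13 FPKM in s_deep7858 and 1.48, 0.11 and 0.22 FPKM in the s_light libraries. BCO2, which cleaves carotenoids, was read at 0.22 and 0.33 FPKM in the males, 0.34 FPKM in s_deep7858 and 0.27, 0.17 and 0.07 FPKM in the s_light libraries. The adjusted p was 0.881 and 0.897 (limma), and the males overlapped the females in both genes. PMEL and GPR143, of the melanosome, were under 1 FPKM in every library, except GPR143 in s_light6575 at 1.63 FPKM.

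SMOC1, TECRL, CYP11A1 and ACACB each had a negative difference over all females and a positive one against s_deep7858 alone (0.12, 0.81, 0.2 and 0.79), with an adjusted p of 0.671 or more over all females (limma). IYD, a deiodinase that recycles iodide, was read at 0.12 and 2.88 FPKM in the males, which lay on either side of all females (0.46 to 1.27 FPKM). ALDH1A3, an enzyme that makes retinoic acid, overlapped between the sexes (adjusted p = 0.79, limma). TLR2B, a Toll-like receptor, was read at 0.41 and 0.62 FPKM in the males, 0.2 FPKM in s_deep7858 and 0.13, 0 and 0.15 FPKM in the s_light libraries (difference 1.57, adjusted p = 0.472, limma).

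Over all autosomal genes, the libraries did not fall into the sexes. Average linkage on 1 minus Pearson's r of log2(FPKM + 1) first split s_deep7858 and s_light6575 from the other 4 libraries, which put both males with s_light6971 and s_light8275. The split was the same with Euclidean distance and complete linkage, and with the 6481 autosomal genes of a mean of at least 10 FPKM. With the 634 Z genes, or with all tested genes, the first split was the 2 males from the 4 females. The set of all tested genes holds HINTW and the other W genes, so that its split draws in part on the gene of the rule. Pearson's r over autosomal genes was 0.982 for the males, 0.97 to 0.979 (median 0.972) for the 6 pairs of females and 0.962 to 0.98 (median 0.976) for the 8 pairs of a male with a female. These are correlations across genes, which are not independent replicates.

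**Figure D5:**
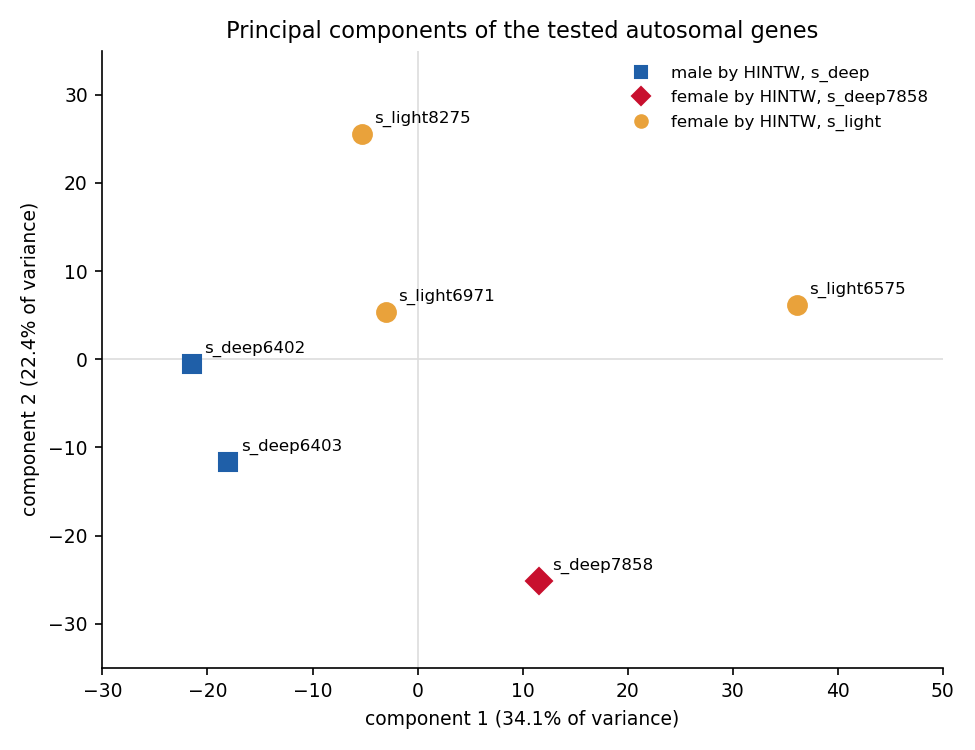
Each library on the first and second principal components of the tested autosomal genes, in log2 units, which hold 34.1% and 22.4% of the variance. The males lie at -21.5 and -18.0 on the first component and s_light6575 at 36.1, while s_deep7858 and s_light8275 are farthest apart on the second, at -25.1 and 25.6.

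The first principal component of the autosomal genes held 34.1% of the variance and placed the males lowest, at -21.5 and -18.0. The females were at 11.6 (s_deep7858), 36.1 (s_light6575), -3.0 (s_light6971) and -5.3 (s_light8275), so that they were spread more widely among themselves than the nearest of them lay from the males. The second held 22.4% and ran from s_deep7858 at -25.1 to s_light8275 at 25.6, with the males at -0.5 and -11.6.

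A further 2148 tested genes were on no chromosome of the RefSeq table or without a match in it. Of these, 26 (1.21%) were called, 22 lower (1.02%) and 4 higher (0.186%) in males, and since they may lie on any chromosome they were counted neither as autosomal nor as sex-linked.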

How the data were processed

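Cloacal skin of 6 Ma-Huang chickens was sequenced, 1 library per bird. The authors aligned single-end reads to a chicken reference (Gallus_gallus-5.0 by their methods, where TopHat and edgeR are named) and deposited FPKM per gene, which are scaled to gene length and library size. The submitters' processing notes name HISAT2 2.0.4, Bowtie2 2.2.5, RSEM 1.1.12 and DESeq2 1.4.5, and which of these tools made the values was not settled. No counts were used, so the depth behind a gene is unknown. Per library the FPKM added up to 471488 to 488777, and 16477 to 16720 genes were above 0.

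Libraries were placed as male or female by HINTW, and the groups s_deep and s_light came from the labels. Symbols and the class of chromosome were taken from RefSeq (assembly GRCg7b), where 15296 IDs (83.5%) were found, with symbols of the study's supplement where RefSeq gave none. That assembly is not the authors', so no coordinates were taken from it. Genes of mean FPKM 0.1 or more were fitted, males minus females, on log2(FPKM + 0.1) by limma 3.58.1 (R 4.3.3, empirical Bayes with a trend on intensity), with Benjamini-Hochberg adjustment over all 15900 tested genes. Calls needed an FDR of 0.05 and an absolute log2 difference of 1. Differences on this scale understate those of genes with low FPKM. Replicates are birds, and 2 males give a weak estimate of the spread among males, which is pooled with that of the females. Python 3.11.15 served for the rest.

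The members, the 21 gene lists and the tests were chosen with earlier results of these data known. Genes were named by rule: those past the FDR, the 12 higher and 12 lower autosomal genes with a symbol, a difference of at least 1, no overlap, a mean of at least 1 FPKM in the higher sex and the smallest p, members of lists without overlap or most abundant (a selection is shown), the genes the study names, and the Z genes with the smallest p. Of 424 list symbols 33 had no match. RPL35A and genes called without s_deep7858 were named after their values were seen. Alternatives were other pseudocounts, filters, scaling, no intensity trend, yellowness as a covariate, the s_deep libraries alone, adjustment over autosomal genes and each library left out.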

Additional observations from a re-analysis of the deposited data

Results flagged for a closer look

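Among 42 autosomal genes checked for a library that stood apart from the other 3 females, 6 held one. Among like libraries chance alone marks about 1 in 20 genes in such a check. The females here hold s_deep7858 beside 3 s_light birds. Some of the genes, HSPB1 and NRAP among them, were chosen with earlier results of these data known. The 6 can therefore not be set against that rate. Genes that share a library are not independent of each other.

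In s_light6575, LOC107049986 was read at 8.19 FPKM where the other females had 1.74 to 2.64 FPKM, TYR at 1.48 FPKM and PMEL at 0.69 FPKM. In s_deep7858, HSPB1 was read at 155.63 FPKM, the lowest female by a wide gap, and NRAP at 1.81 FPKM, the highest. In s_light8275, APOC3, an apolipoprotein of triglyceride-rich particles, was read at 0.46 FPKM where each other female had 0.15 FPKM. Its mark rests on these equal low values.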

How the results depend on the processing

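The 6 called autosomal genes became 1 with yellowness as a covariate, 0 in the s_deep libraries alone and 0 with adjustment over autosomal genes alone, and ranged from 0 to 16 with a library left out. The other alternatives gave 4 to 7. All 6 were called again under no filter, a minimum of 1 FPKM, a pseudocount of 0.01 and both scalings. Of them, 5 were called under a pseudocount of 1 and 2 without the trend. With yellowness as a covariate none of the 6 was called again, as the gene called there was RPL35A. The 9 called Z genes became 2 without the intensity trend, 1 with the covariate and 0 in the s_deep libraries alone, and ranged from 1 to 8 with a library left out. Called list members were 0 throughout, with a range of 0 to 5 when a library was left out. Among genes past the FDR against the s_light females, s_deep7858 was nearer to s_light in 6 of the 15 lower genes (40.0%). It was nearer to s_light in 0.0% of the higher genes (1 gene, NRAP).

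Directions turned only in genes that were not called. With yellowness as a covariate and in the s_deep libraries alone the difference became 0.12 for SMOC1, 0.2 for CYP11A1, 3.12 for FHL2, 0.81 for TECRL, 0.79 for ACACB, 0.13 for TYR, 0.51 for GPR143, -0.25 for BCO2, 0.46 for MYL4 and 0.21 for HSPB1, the fit resting on s_deep7858 as the female. IYD became 0.21 with a pseudocount of 1, and with a library left out ranged from -2.0 to 1.76 (1.76 without s_deep6402, 0.09 without s_deep7858). TYR ranged from -0.96 to 0.01, the latter without s_light6575. The cause was not tested. Of all values of single genes under the alternatives, 1667 kept direction and side of the threshold, 89 lost and 10 gained the threshold, and 24 turned.

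No paired analysis was possible because the wing numbers of the libraries are not shared between the groups. With 2 males, no s_light male and no counts, small sex differences of autosomal genes and the part of yellowness cannot be resolved.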

Other observations

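Of 16 tested autosomal genes of the immediate-early response, 15 had a negative difference. The median difference was -0.70 on the log2(FPKM + 0.1) scale, beside 0.01 over all tested autosomal genes. Against the s_light females it was -0.8 and against s_deep7858 -0.41. In 2 of the 16 (12.5%) both males were lower without overlap, beside 7.64% of all tested autosomal genes. The summed FPKM was 595 in s_deep6402, 1148 in s_deep6403, 1020 in s_deep7858 and 2232, 1123 and 1218 in the s_light libraries. The male s_deep6403 thus lay within the range of the females. EGR1, a transcription factor induced within minutes of a stimulus, was read at 42.0 and 58.8 FPKM in the males, 98.9 FPKM in s_deep7858 and 214, 100.4 and 88.3 FPKM in the s_light libraries (difference -1.23, standard error 0.36, adjusted p = 0.35, limma). FOS was read at 18.0 and 73.5 FPKM in the males, at 60.5 FPKM in s_deep7858 and at 236, 77.0 and 87.8 FPKM in the s_light libraries. The sexes did not overlap in EGR1 and overlapped in FOS.

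MSTN, which encodes myostatin, an inhibitor of muscle growth, was read at 0 and 0.05 FPKM in the males, 0.49 FPKM in s_deep7858 and 0.48, 1.14 and 0.43 FPKM in the s_light libraries (adjusted p = 0.113, limma). ELOVL6, which elongates fatty acids, was read at 60.0 and 58.5 FPKM in the males, 40.1 FPKM in s_deep7858 and 37.8, 41.0 and 50.1 FPKM in the s_light libraries (difference 0.50, standard error 0.13, adjusted p = 0.286, limma). CYP26B1, which breaks down retinoic acid, was read at 22.3 and 27.0 FPKM in the males, 52.5 FPKM in s_deep7858 and 29.6, 34.6 and 40.7 FPKM in the s_light libraries (difference -0.64, adjusted p = 0.478, limma). The sexes did not overlap in these genes, and none was called.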
